A study of Mus musculus with 6 samples.

Results

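MC38, a mouse line from a colon adenocarcinoma, and AE17, a mouse line from a malignant mesothelioma, were compared on 4 of the 6 arrays of the series, 2 for each line. Each line had 1 array labelled sh Ctrl, whose genotype label reads wild type, and 1 labelled sh Spp1, whose genotype label reads Spp1 depletion. Spp1 encodes osteopontin, a secreted phosphoprotein that binds integrins and Cd44, and the hairpin is an RNA that lowers its message. The labels call the controls both sh Ctrl and wild type, so they do not settle whether the controls carried a control hairpin. All cultures grew in DMEM with fetal bovine serum, as plastic-grown tumour cells without host tissue. Nothing in the labels says whether a line is a clone or a pool, and no line has a second culture under the same hairpin. The remaining 2 arrays, from the Lewis lung carcinoma line LLC, were left out of the fit. They entered the quantile normalisation over the 6 arrays and are otherwise quoted as an outside reference.

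Members are the genes for which both MC38 arrays lay on the same side of both AE17 arrays, whichever hairpin the cells carried. Of 16859 genes tested, 7314 did so. The distance between the lines is given below as a gap, the lowest array of the brighter line minus the highest array of the other, in log2 units. A positive gap or difference means MC38 was higher and a negative one that AE17 was higher. Values are log2 intensities after quantile normalisation, each pair of values has the sh Ctrl array first and the sh Spp1 array second, and a difference of 1 is a 2-fold ratio. Errors of differences are standard errors (SE) of the limma fit, n = 2 arrays per line, and do not measure the spread between the arrays of a line.

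Mesothelium is the cell sheet that lines the chest and belly cavities. It makes mesothelin and keratins, and mesothelioma cells often shift towards a fibroblast-like form. Colonic epithelium is marked by the transcription factors Cdx1 and Cdx2, villin, mucins and the adhesion molecule Epcam, and colon carcinoma lines often keep part of that set. Secreted antagonists such as gremlin and decorin help set how a cell answers to bone morphogenetic proteins (BMPs) and transforming growth factor beta (TGF-beta). The genes of the Id proteins are among the targets that BMPs induce. Both pathways act in colon and in mesothelial tumours.

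The arrays themselves differed in how closely they paired. Median intensities before normalisation ran from 26.6 to 49.4 on the 4 arrays. Across probe sets the MC38 arrays correlated at r = 0.982 with each other, the AE17 arrays at 0.939, and arrays of different lines at 0.943 to 0.949, so the AE17 arrays lay as far from each other as from MC38. Probe sets are not replicates. By at least 1 log2 unit, 3141 genes differed between the AE17 arrays and 417 between the MC38 arrays. The difference within AE17 exceeded the difference between the lines for 63.1% of genes, and the difference within MC38 did so for 40.3%. Hairpin, culture and array cannot be told apart within a line, and the level of Spp1 was not analysed here.

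Dcn, Grem1, mesothelin and Macc1 were among the genes with the widest separation towards MC38, and Il13ra1, Acta2, Id2 and Ndrg2 among those towards AE17. None of the 16859 genes reached an adjusted p under 0.05 in limma with the shRNA as a covariate, which is 0% in each direction. The smallest adjusted p was 0.224, and 1526 genes had an unadjusted p under 0.05, 629 higher in MC38 and 897 higher in AE17. The fit has 1 residual degree of freedom, and an exact permutation test of 2 arrays against 2 cannot go below p = 0.333. What follows therefore describes sizes: 2772 genes, 16.4%, were separated with MC38 higher and 4542, 26.9%, with AE17 higher. A gap of at least 1 was reached by 193 genes, 1.14%, towards MC38 and by 277, 1.64%, towards AE17, and gaps of at least 2 by 51 and 68.

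The balance between the directions depended on the scaling. In the values as deposited, the median difference over all genes was 0.52 rather than -0.08, 9284 genes were separated towards MC38 and 649 towards AE17, and gaps of at least 1 numbered 668 and 108. All 193 of the wide gaps towards MC38 and 108 of the 277 towards AE17 were also found there. The sign of a difference near 0 therefore depends on the scaling. With each array centred on its median, 151 and 218 of the wide gaps kept a gap of at least 1. At the edge of that limit lay Arfgef1, at 8.97 and 8.97 in AE17 against 9.97 and 10.02 in MC38 with a gap of 1.001, and Angpt2, at 5.97 and 5.96 in AE17 against 4.55 and 4.96 in MC38 with -1.001. Just short of it were Fmnl1, with a gap of 0.998, and B930095G15Rik, with 0.998.

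**Figure D1:**
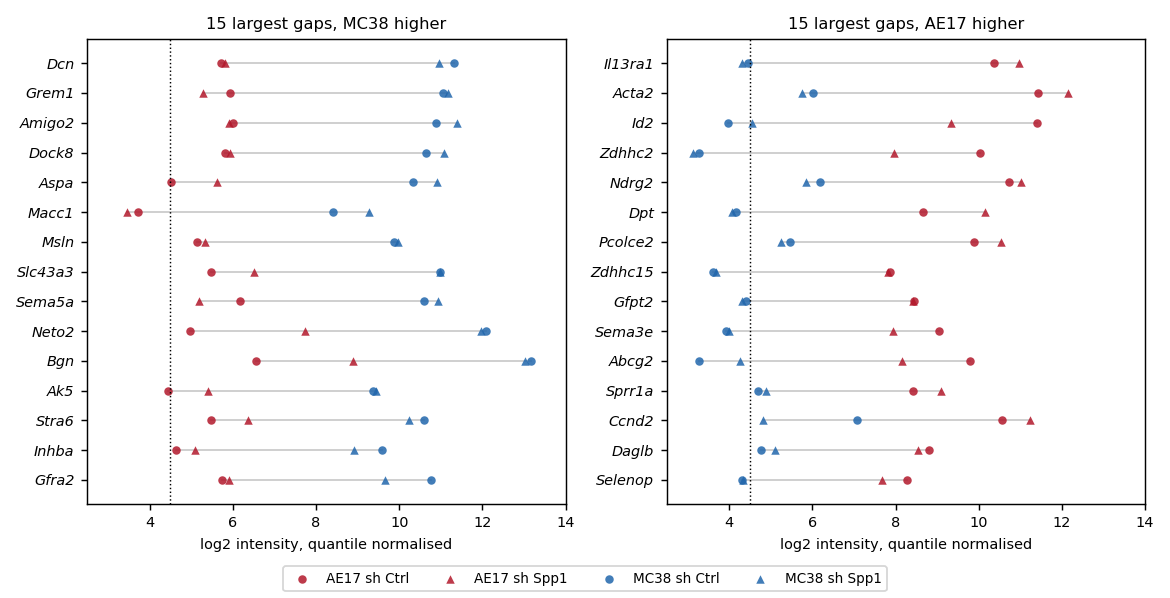
Log2 intensity (horizontal axis) of the 15 named genes with the largest gaps in each direction on the 2 AE17 arrays (red) and the 2 MC38 arrays (blue), circles for sh Ctrl and triangles for sh Spp1; the dotted line is the brightness floor of 4.49 and grey lines join each gene's arrays. Red and blue symbols do not overlap for any gene shown, and several of the lower symbols, such as those of Il13ra1 in MC38, lie under the floor.

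The widest gap towards MC38 was that of decorin, Dcn (Entrez gene 13179), a small proteoglycan that binds collagen fibrils and TGF-beta. Its values were 5.71 and 5.81 in AE17 against 11.31 and 10.95 in MC38, a difference of 5.37 ± 0.27 (SE; limma adjusted p = 0.224). Its close relative biglycan, Bgn, had 6.56 and 8.89 in AE17 against 13.16 and 13.02 in MC38, and both tested probe sets of Bgn were separated the same way. The mean of the Bgn probe sets gave a smaller difference, 3.64, than the 5.37 of the brightest. Both MC38 arrays were thus high for both proteoglycans and both AE17 arrays lower, although the AE17 arrays differed from each other in Bgn.

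Among the other members with the widest gaps towards MC38, Macc1, a regulator of Met signalling named for its link to colon cancer metastasis, had 3.71 and 3.45 in AE17 against 8.41 and 9.28 in MC38. Both AE17 values lay under the brightness floor of 4.49, below which a level is set mainly by background, so its difference of 5.27 ± 0.39 is approximate. Dock8, a guanine nucleotide exchange factor best known from leukocytes, had 5.82 and 5.93 in AE17 against 10.65 and 11.07 in MC38. Its MC38 arrays were high and its AE17 and LLC arrays low, the latter at 5.36 and 5.13. Amigo2, a neuronal adhesion molecule, had 6.01 and 5.90 in AE17 against 10.87 and 11.40 in MC38. Aspa, which cleaves N-acetylaspartate, had 4.52 and 5.62 in AE17 against 10.33 and 10.90 in MC38. Neto2, an auxiliary subunit of kainate receptors, had 4.96 and 7.74 in AE17 against 12.09 and 11.96 in MC38, and here the AE17 arrays stood 2.78 apart without reaching MC38. The amino acid transporter family member Slc43a3, the adenylate kinase Ak5 and the neurturin receptor Gfra2 had differences of 4.98 ± 0.37, 4.50 ± 0.34 and 4.39 ± 0.41.

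Towards AE17 the widest named gap was that of Il13ra1 (Entrez gene 16164), a receptor chain for interleukin-13 and interleukin-4. It had 10.38 and 10.98 in AE17 against 4.45 and 4.32 in MC38, a difference of -6.29 ± 0.31 (SE; limma adjusted p = 0.224), with both MC38 arrays under the floor. Acta2, smooth muscle alpha-actin, the usual mark of myofibroblasts, had 11.43 and 12.15 in AE17 against 6.01 and 5.75 in MC38, a 60.01-fold difference. Both AE17 arrays were high, and LLC lay between the lines at 8.43 and 7.62. The palmitoyltransferase gene Zdhhc2 had 10.04 and 7.97 in AE17 against 3.27 and 3.12 in MC38. Its relative Zdhhc15 had 7.88 and 7.82 in AE17 against 3.62 and 3.70 in MC38. Ndrg2, a stress and differentiation gene often silent in carcinomas, had 10.73 and 11.01 in AE17 against 6.17 and 5.85 in MC38. All 3 were low on both MC38 arrays. For Zdhhc2 and Zdhhc15 both MC38 values lay under the floor, so the size of their gaps is approximate.

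Pcolce2, which helps trim procollagen, had 9.89 and 10.53 in AE17 against 5.46 and 5.25 in MC38, high on both AE17 arrays. Abcg2, a drug efflux pump, had 9.79 and 8.17 in AE17 against 3.28 and 4.25 in MC38. Gfpt2, which feeds the hexosamine pathway, had 8.44 and 8.42 in AE17 against 4.40 and 4.31 in MC38, among the tightest pairs shown. Selenop, the plasma selenium carrier, Daglb, a diacylglycerol lipase of endocannabinoid synthesis, and the cornified envelope protein gene Sprr1a had differences of -3.65 ± 0.30, -3.74 ± 0.29 and -3.97 ± 0.28. Both MC38 arrays lay under the floor for Abcg2, Gfpt2 and Selenop, so the size of those differences is approximate. The clone 2610524H06Rik, passed over by the naming rule, had the widest gap of all tested genes, -6.89 towards AE17, and is named here after its values were seen.

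LLC entered the quantile normalisation but was not otherwise used to choose any of these genes. With that step over the 4 arrays alone, gaps of at least 1 numbered 192 towards MC38 and 275 towards AE17. Of the 193 with a gap of at least 1 towards MC38, both LLC arrays lay on the AE17 side of the middle of the gap for 109, or 56.5%, and on the MC38 side for 47, or 24.4%. For the 277 towards AE17, both lay on the AE17 side for 121, or 43.7%, and on the MC38 side for 114, or 41.2%. Over all separated genes, LLC lay on the AE17 side for 39.1% of those higher in MC38 and for 28.6% of those higher in AE17. Dcn, Msln, Stra6, Inhba and Bgn were on the AE17 side in LLC, while Grem1, at 9.65 and 9.13, Sema5a, Slc43a3 and Ak5 lay on the MC38 side. Among the named genes higher in AE17, 9 of 15 were on the AE17 side in LLC, such as Id2 at 9.46 and 9.01 and Ccnd2 at 11.05 and 11.57, and 4, Acta2, Gfpt2, Sprr1a and Zdhhc15, on the MC38 side.

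The labels were set against tissue markers. Of 23 mesothelial markers, 22 were on the array, 20 were tested, 4 were separated towards AE17, the mesothelioma line, and 4 towards MC38, or 20% each way beside 26.9% and 16.4% of all genes. Mesothelin, Msln (Entrez gene 56047), the surface protein that gives mesothelium its best known marker, went against the label: it had 5.13 and 5.34 in AE17 against 9.87 and 9.96 in MC38, a difference of 4.68 ± 0.24 (SE; limma adjusted p = 0.224), and LLC had 5.01 and 4.49. Tbx18, a T-box factor of mesothelium and epicardium, had 4.93 and 6.11 in AE17 against 7.67 and 7.65 in MC38. Bnc1, basonuclin, had 6.62 and 5.41 in AE17 against 7.83 and 7.69 in MC38. Gata6 had 4.77 and 7.53 in AE17 against 7.86 and 8.02 in MC38, so only its AE17 sh Ctrl array was low. These 4 were higher on both MC38 arrays. The related factor Gata4 had 7.15 and 8.16 in AE17 against 6.33 and 6.09 in MC38. The protease inhibitor gene Slpi had 8.35 and 8.56 in AE17 against 8.12 and 6.64 in MC38. AE17 was higher on both arrays for each.

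The remaining mesothelial markers did not set AE17 apart. Upk3b and Rspo1 were separated towards AE17 by gaps of only -0.06 and -0.09. Wt1, the Wilms tumour factor, had 5.83 and 5.64 in AE17 against 5.71 and 5.65 in MC38. Krt19 had 5.02 and 5.51 in AE17 against 4.92 and 5.15 in MC38. The lines overlapped in both. Pdpn, podoplanin, had 6.99 and 9.75 in AE17 against 9.70 and 9.63 in MC38, low on the AE17 sh Ctrl array alone. Calb2, calretinin, and Muc16 were under the floor on all 4 arrays. The summed intensity of the tested markers was 1383 and 2477 in AE17 and 3303 and 3142 in MC38. The markers did not place AE17 nearer to mesothelium than MC38, and the lines are called by their names below.

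Markers of intestinal and colonic epithelium did not set MC38 apart either. Of 30, 29 were on the array and 20 were tested; 3 were separated towards MC38, by gaps of up to 0.06, and 5 towards AE17, shares of 15% and 25% beside 16.4% and 26.9% of all genes. Cdx2 had 4.96 and 5.34 in AE17 against 5.18 and 5.03 in MC38. Vil1, villin, had 5.04 and 4.49 in AE17 against 4.66 and 4.71 in MC38. Muc2, the main colonic mucin, had 5.77 and 5.58 in AE17 against 5.55 and 5.61 in MC38. The lines overlapped in each. Epcam was under the floor on all 4 arrays, at 4.39 and 4.16 in AE17 against 3.54 and 3.80 in MC38. The only member with a gap of at least 1 was Car2, a carbonic anhydrase, at 5.74 and 6.12 in AE17 against 4.32 and 4.49 in MC38. The tested markers summed to 981 and 775 in AE17 and 720 and 747 in MC38.

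**Figure D2:**
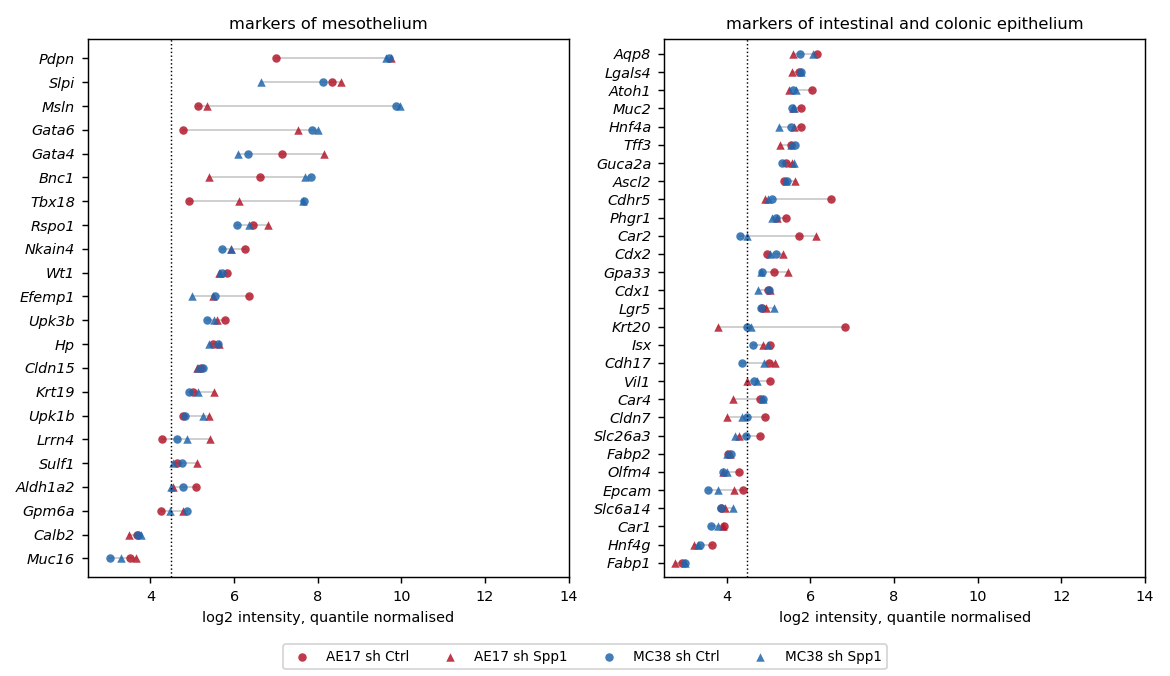
Log2 intensity of the markers of mesothelium (left, 22 on the array) and of intestinal and colonic epithelium (right, 29 on the array), ordered by their mean over the 4 arrays, with colours and symbols for line and hairpin as in the key and the brightness floor of 4.49 dotted. Mesothelin stands far higher in MC38 than in AE17, and no colonic marker has a gap of over 0.06 towards MC38.

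Markers of other cell types were few among the wide gaps, Acta2, Dcn and Dpt apart. All-gene shares to hold them against are 16.4% towards MC38 and 26.9% towards AE17. Of 18 leukocyte markers, 13 were tested, 1 was separated towards MC38 (7.69%) and 3 towards AE17 (23.1%), led by Lyz2 at 7.50 and 5.12 in AE17 against 4.54 and 4.34 in MC38. Of 14 endothelial markers, 11 were tested and 4 were separated, all towards AE17 (36.4%), none by 1. T, B and NK cell markers had 2 and 3 of 8 separated (25% and 37.5%), and lung epithelial markers 2 and 4 of 11 (18.2% and 36.4%), none by 1. Smooth and skeletal muscle markers included 15 tested, 7 separated towards AE17 (46.7%) and 1 towards MC38 (6.67%), and their summed intensity, carried by Acta2, was 3822 and 5468 in AE17 and 691 and 686 in MC38. Of 14 tested fibroblast markers, 3 were separated towards MC38 (21.4%), with Dcn the widest, 2 towards AE17 (14.3%), with dermatopontin, Dpt, the widest, and 9 not. Their median was 0.51 between the sh Ctrl arrays and -0.37 between the sh Spp1 arrays, and their summed intensity was 3275 and 10730 in AE17 and 7653 and 5299 in MC38. Melanocyte and Schwann cell markers had 3 of 7 towards MC38 (42.9%) and 0 towards AE17, led by Mitf at 7.26 and 7.16 in AE17 against 8.51 and 7.87 in MC38. Adipocyte markers had 6 of 8 towards AE17 (75%) and 0 towards MC38, none by 1, led by Fabp4 at 8.36 and 5.69 in AE17 against 4.84 and 4.42 in MC38. Their summed intensity was low, at 587 and 334 in AE17 and 233 and 221 in MC38. Of the 10 on the array, 1 was under the brightness floor on both AE17 arrays and 3 on both MC38 arrays. The part of other cells in any difference between the lines was not tested.

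The BMP and TGF-beta pathway held wide gaps in both directions. Of 51 tested members, 6 were separated towards MC38 (11.8%, beside 16.4% of all genes) and 15 towards AE17 (29.4%, beside 26.9%), and 4 and 5 had gaps of at least 1 (the shares for all genes being 1.14% and 1.64%). Towards MC38 lay the antagonist gremlin, the activin subunit Inhba, the receptor Tgfbr2 and Skil, a SMAD co-repressor that TGF-beta also induces. Of the 9 tested targets, 1, Skil, was separated towards MC38 and 5 towards AE17, of which 4 had gaps of at least 1: the inhibitors of differentiation Id1, Id2 and Id3 and the secreted adhesion protein Tgfbi. The ligand Bmp5 also lay towards AE17. Receptors, latency proteins and antagonists were separated for 4 of 24 in each direction, and ligands for 1 and 6 of 18. The 9 targets had a median difference of -1.88, which was -0.44 between the sh Ctrl arrays and -2.51 between the sh Spp1 arrays, beside -0.11 and -0.05 for all genes. The list as a whole had a median of -0.19, beside -0.08 for all genes.

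Gremlin, Grem1 (Entrez gene 23892), binds BMPs outside the cell and keeps them from their receptors. It had 5.93 and 5.28 in AE17 against 11.05 and 11.17 in MC38, a difference of 5.51 ± 0.32 (SE; limma adjusted p = 0.224), or 45.4-fold. Id2 (Entrez gene 15902), a helix-loop-helix protein without a DNA-binding domain that BMPs induce in many cells, had 11.40 and 9.34 in AE17 against 3.97 and 4.54 in MC38. Its difference was -6.12 ± 0.74 (limma adjusted p = 0.302), and its AE17 arrays differed by -2.07 (sh Spp1 minus sh Ctrl). The MC38 sh Ctrl value of Id2 lay under the floor of 4.49 and the sh Spp1 value just above it, so that difference is approximate. Id1 had 7.99 and 8.71 in AE17 against 5.44 and 5.14 in MC38. Id3 had 7.79 and 9.69 in AE17 against 5.24 and 6.03 in MC38. For each of the 3 Id genes both MC38 arrays lay below both AE17 arrays, the opposite order to gremlin. LLC lay on the high side of the gap both for Grem1, at 9.65 and 9.13, and for Id2, at 9.46 and 9.01. For Id1 and Id3 the LLC arrays did not lie on the same side. A link between gremlin and the Id genes was not tested.

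The promoters of these genes are shown because gremlin and the Id genes lay on opposite sides, and those of Ankrd1 and Acta2, described below, because both are read as targets of factors that answer to cell tension. Each is 250 bases before the annotated start, from RefSeq on build GRCm38.p6, on the gene's own strand. Capitals mark matches on either strand to the Sp1 box GGGCGG, the TEAD box GGAATG, the GATA box AGATAA and the E-box CACCTG. Grem1 lies at chr2:113758649-113758898 on the minus strand, Id2 at chr12:25096093-25096342 on the minus strand, Id3 at chr4:136143572-136143821 on the plus strand, Ankrd1 at chr19:36119845-36120094 on the minus strand and Acta2 at chr19:34255374-34255623 on the minus strand.
Grem1: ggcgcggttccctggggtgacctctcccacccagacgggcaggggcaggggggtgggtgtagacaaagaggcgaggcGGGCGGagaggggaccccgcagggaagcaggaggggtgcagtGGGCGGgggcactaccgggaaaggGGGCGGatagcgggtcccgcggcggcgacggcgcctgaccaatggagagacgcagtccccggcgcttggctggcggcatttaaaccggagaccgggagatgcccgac
Id2: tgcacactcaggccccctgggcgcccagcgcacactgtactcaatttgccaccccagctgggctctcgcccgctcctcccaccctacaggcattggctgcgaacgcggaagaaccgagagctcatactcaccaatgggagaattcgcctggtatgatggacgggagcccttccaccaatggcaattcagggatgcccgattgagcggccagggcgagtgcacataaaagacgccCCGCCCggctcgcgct
Id3: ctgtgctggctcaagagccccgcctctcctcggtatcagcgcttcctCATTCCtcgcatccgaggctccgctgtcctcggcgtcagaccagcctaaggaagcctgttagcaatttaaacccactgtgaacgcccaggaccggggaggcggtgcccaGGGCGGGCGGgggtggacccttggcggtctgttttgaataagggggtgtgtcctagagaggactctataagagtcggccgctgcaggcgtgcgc
Ankrd1: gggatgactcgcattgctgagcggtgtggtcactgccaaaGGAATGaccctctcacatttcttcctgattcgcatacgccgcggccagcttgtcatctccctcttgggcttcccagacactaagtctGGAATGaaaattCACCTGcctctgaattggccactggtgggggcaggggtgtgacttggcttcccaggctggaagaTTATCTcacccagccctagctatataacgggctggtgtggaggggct
Acta2: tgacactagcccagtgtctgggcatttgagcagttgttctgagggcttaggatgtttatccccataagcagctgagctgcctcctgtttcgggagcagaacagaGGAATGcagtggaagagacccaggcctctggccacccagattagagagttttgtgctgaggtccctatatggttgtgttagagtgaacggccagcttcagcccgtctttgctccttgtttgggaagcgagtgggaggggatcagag
The Grem1 window held 3 Sp1 boxes, that of Id2 held 1, and that of Id3 held 2 that overlap and 1 TEAD box. The Ankrd1 window held 2 TEAD boxes, 1 GATA box and 1 E-box, and the Acta2 window 1 TEAD box. In windows of that length, 52.6% of the 13028 tested genes with a promoter in the table held an Sp1 box, 11.2% a TEAD box, 6.83% a GATA box and 16.8% this E-box. CpG pairs numbered 24 in the Grem1 window and 18 in each Id window, against 7 for Ankrd1 and 4 for Acta2, where the median of all was 13. These are letters in a window and show no binding.

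Inhba, whose product forms activin A, had 4.64 and 5.10 in AE17 against 9.58 and 8.93 in MC38, high on both MC38 arrays and near the floor on both AE17 arrays. Tgfbr2, the TGF-beta type II receptor, often mutated in colon cancer with mismatch repair loss, had 6.69 and 8.13 in AE17 against 9.50 and 9.72 in MC38. Skil had 5.32 and 6.77 in AE17 against 8.92 and 8.42 in MC38. Smad4, the shared partner of receptor-activated SMADs, lay the other way at 10.07 and 10.30 in AE17 against 8.61 and 8.36 in MC38, a difference of -1.70 ± 0.27. Tgfbi had 10.24 and 10.80 in AE17 against 7.35 and 8.29 in MC38. Bmp5 had 9.79 and 5.45 in AE17 against 4.08 and 4.39 in MC38, so its height in AE17 rested on the sh Ctrl array, and MC38 was under the floor.

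**Figure D3:**
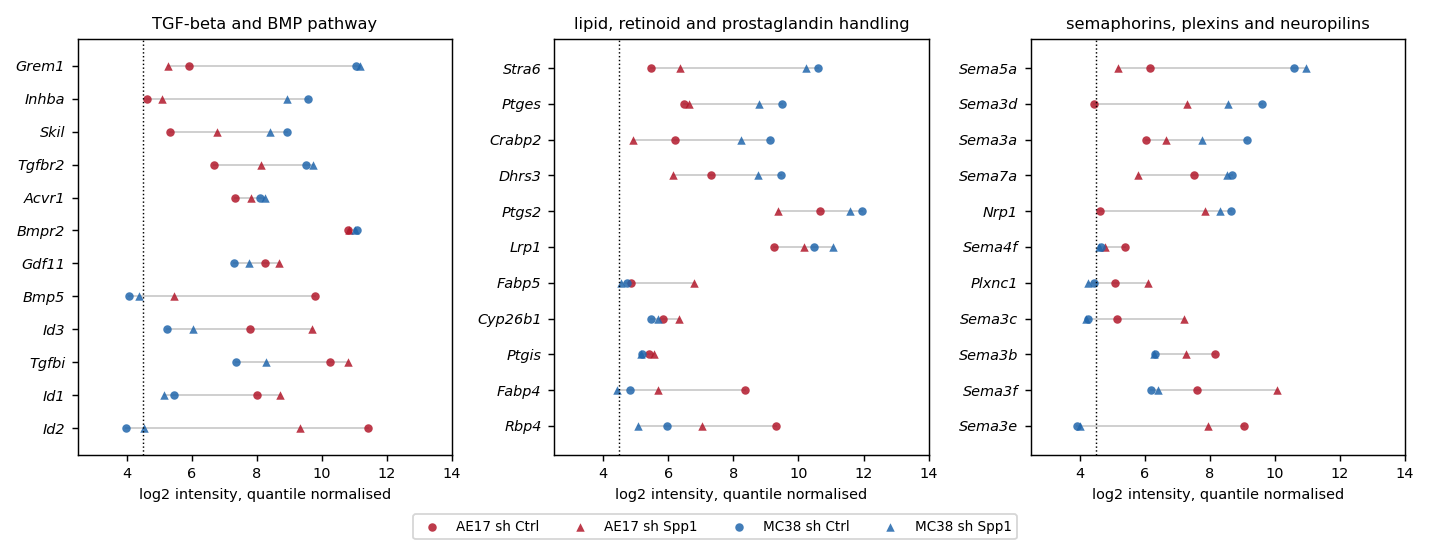
Log2 intensity of up to 6 members with the largest gaps in each direction of the TGF-beta and BMP pathway (left), of lipid, retinoid and prostaglandin handling (middle) and of semaphorins, plexins and neuropilins (right), with colours for the line, symbols for the hairpin and the brightness floor of 4.49 dotted. Gremlin and Inhba are high in MC38 where Id1, Id2 and Id3 are high in AE17, and Sema5a and Sema3e lie in opposite order.

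Retinoid and prostaglandin genes were among the wide gaps towards MC38. Of 24 tested members of the lipid, retinoid and prostaglandin list, 10 were separated towards MC38 (41.7%, beside 16.4%) and 5 towards AE17 (20.8%, beside 26.9%), with 4 and 1 gaps of at least 1. Stra6, the cell-surface receptor that takes up retinol, had 5.47 and 6.36 in AE17 against 10.60 and 10.23 in MC38, a difference of 4.50 ± 0.42 (SE; limma adjusted p = 0.258). Crabp2, which carries retinoic acid to its nuclear receptor, had 6.21 and 4.91 in AE17 against 9.13 and 8.22 in MC38. Dhrs3, which turns retinal back to retinol, had 7.30 and 6.14 in AE17 against 9.46 and 8.77 in MC38. All 3 were higher on both MC38 arrays, and LLC was low for Stra6 at 5.83 and 5.58. The plasma retinol carrier Rbp4 lay the other way at 9.31 and 7.02 in AE17 against 5.97 and 5.07 in MC38.

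For prostaglandin E2, the synthase Ptges had 6.48 and 6.64 in AE17 against 9.50 and 8.79 in MC38. The cyclooxygenase Ptgs2 had 10.65 and 9.36 in AE17 against 11.95 and 11.57 in MC38. Both steps of that synthesis were higher on both MC38 arrays, by 2.59 ± 0.33 and 1.75 ± 0.34. Fabp4, the lipid carrier named above, was the second member towards AE17 after Rbp4.

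Semaphorins, secreted or membrane-bound guidance cues that also steer vessels and immune cells, held wide gaps in both directions. Of 24 tested semaphorins, plexins and neuropilins, 5 were separated towards MC38 (20.8%, beside 16.4%) and 7 towards AE17 (29.2%, beside 26.9%), with 4 and 2 gaps of at least 1. Sema5a (Entrez gene 20356) had 6.17 and 5.19 in AE17 against 10.59 and 10.94 in MC38, a difference of 5.08 ± 0.43 (SE; limma adjusted p = 0.257). Sema3e (Entrez gene 20349), the ligand of plexin D1, had 9.05 and 7.94 in AE17 against 3.92 and 4.01 in MC38, a difference of -4.53 ± 0.40. Both MC38 values of Sema3e were under the floor, so that difference is approximate. The lines were thus in opposite order for these semaphorins. Sema3d had 4.45 and 7.30 in AE17 against 9.59 and 8.54 in MC38. Sema3a, the classic repellent of axons, had 6.04 and 6.65 in AE17 against 9.15 and 7.77 in MC38. Sema7a, which is anchored to the membrane, had 7.52 and 5.78 in AE17 against 8.68 and 8.53 in MC38. These 3 were higher on both MC38 arrays. Sema3f had 7.61 and 10.08 in AE17 against 6.18 and 6.41 in MC38. Sema3b had 8.15 and 7.26 in AE17 against 6.31 and 6.28 in MC38. Sema3c had 5.14 and 7.21 in AE17 against 4.26 and 4.20 in MC38. These 3 were higher on both AE17 arrays, though Sema3f and Sema3c stood apart within AE17. Among ephrins, the ligands of Eph receptors, Efnb2 had 4.50 and 6.75 in AE17 against 8.62 and 9.15 in MC38. Efna1 had 8.73 and 8.69 in AE17 against 7.19 and 7.28 in MC38. Efnb2 lay towards MC38 and Efna1 towards AE17.

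The extracellular matrix also held wide gaps in both directions. Of 68 tested glycoproteins and proteoglycans, 13 were separated towards MC38 (19.1%) and 21 towards AE17 (30.9%), near the shares of all genes, with 3 and 5 gaps of at least 1. Besides Dcn and Bgn, thrombospondin-1, Thbs1, had 7.76 and 11.01 in AE17 against 12.31 and 12.25 in MC38, where the AE17 sh Ctrl array alone was low. The small matrix protein Dpt (Entrez gene 56429), which helps collagen fibrils form, had 8.65 and 10.14 in AE17 against 4.16 and 4.07 in MC38. Both AE17 arrays were high and both MC38 arrays under the floor. The laminin chain Lama5 had 7.81 and 9.64 in AE17 against 5.76 and 5.57 in MC38. The SPARC relative Sparcl1 had 8.66 and 5.57 in AE17 against 4.42 and 4.01 in MC38. The syndecan Sdc1, a heparan sulphate proteoglycan of epithelia, had 8.87 and 8.71 in AE17 against 7.61 and 7.53 in MC38, with both tested probe sets of Sdc1 separated the same way. Sdc1 held together on both AE17 arrays, while Lama5 and Sparcl1 differed between them.

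Collagens were mostly not separated. Of 37 tested collagens, 4 were separated towards MC38 (10.8%, beside 16.4%) and 11 towards AE17 (29.7%, beside 26.9%), and the only gap of at least 1 was that of Col6a3, a beaded-filament collagen, at 7.34 and 7.82 in AE17 against 9.06 and 9.64 in MC38. Fibronectin, Fn1, had 6.57 and 12.09 in AE17 against 12.46 and 12.91 in MC38, so that its gap of 0.38 was far smaller than the 5.51 between the AE17 arrays; it is named after its values were seen. Of 47 tested proteases and inhibitors, 6 were separated towards MC38 (12.8%, beside 16.4%) and 17 towards AE17 (36.2%, beside 26.9%). Mmp23, a metalloprotease, had 5.85 and 5.57 in AE17 against 7.84 and 7.87 in MC38. Serpinb2, a plasminogen activator inhibitor, had 4.77 and 8.56 in AE17 against 3.26 and 3.24 in MC38. Timp2, a tissue inhibitor of metalloproteases, had 11.55 and 11.45 in AE17 against 10.63 and 10.79 in MC38. Mmp23 was higher in MC38 and both inhibitors in AE17. For Serpinb2 the height in AE17 rested on the sh Spp1 array, with the sh Ctrl array near the floor and MC38 under it.

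Osteopontin receptors were examined because the hairpin is directed at their ligand. Of 19 tested integrin subunits and Cd44, 7 were separated in each direction (36.8%, beside 16.4% towards MC38 and 26.9% towards AE17). Itgb8, which with alpha-v activates latent TGF-beta, had 4.65 and 5.50 in AE17 against 8.77 and 8.53 in MC38, a difference of 3.58 ± 0.38 (SE; limma adjusted p = 0.274). Itga6, a laminin receptor chain, had 10.07 and 9.10 in AE17 against 11.24 and 11.39 in MC38. Itga1, a collagen receptor chain, had 7.51 and 6.83 in AE17 against 5.22 and 4.10 in MC38. Itgb8 and Itga6 were thus higher in MC38 and Itga1 higher in AE17. The osteopontin receptor chain Itgav had 10.24 and 10.56 in AE17 against 10.76 and 11.03 in MC38. Its partner Itgb3 had 7.51 and 7.42 in AE17 against 8.41 and 7.71 in MC38. Cd44 had 7.93 and 8.51 in AE17 against 9.18 and 8.64 in MC38. All 3 were separated towards MC38, by gaps of 0.20, 0.20 and 0.13. For Itgav and Cd44 the arrays of each line, and for Itgb3 the MC38 arrays, stood further apart than that. These 3 were named as known receptors of osteopontin, after their values were seen, and do not stand for the list. Of 11 tested alpha subunits, 3 lay towards MC38 (27.3%) and 5 towards AE17 (45.5%). Of 7 beta subunits, 3 lay towards MC38 (42.9%) and 2 towards AE17 (28.6%).

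Genes of epithelial adhesion and polarity were separated towards AE17 for 14 of 33 tested (42.4%, beside 26.9%) and towards MC38 for 7 (21.2%, beside 16.4%). Polarity and splicing regulators gave 7 of the 14, adherens and desmosomal genes 3 of 8, and tight-junction genes 4 of 11, with 3 of 11 towards MC38. The desmosomal plakophilin Pkp2 had 9.81 and 8.64 in AE17 against 5.64 and 6.23 in MC38. The tight-junction protein occludin, Ocln, had 7.66 and 8.03 in AE17 against 5.50 and 5.50 in MC38. In each, both AE17 arrays lay above both MC38 arrays. F11r, junctional adhesion molecule A, had 6.44 and 10.25 in AE17 against 5.11 and 5.36 in MC38, low in MC38 but 3.81 apart within AE17. The claudin Cldn12 lay towards MC38 at 8.17 and 8.50 in AE17 against 10.10 and 9.60 in MC38. Of 9 tested mesenchymal transcription factors, 4 were separated towards MC38 (44.4%, beside 16.4%) and 1 towards AE17 (11.1%, beside 26.9%). Of 10 tested mesenchymal structure and adhesion genes, 1 lay towards MC38 (10%) and 4 towards AE17 (40%). Among the mesenchymal factors, Tcf4, also called E2-2, had 9.45 and 9.44 in AE17 against 10.78 and 10.72 in MC38. Twist1 had 9.30 and 9.05 in AE17 against 8.46 and 7.89 in MC38. Tcf4 lay towards MC38 with tight pairs, and Twist1 towards AE17 with its MC38 arrays less close. Of 6 tested simple keratins, 2 were separated, both towards MC38. Krt8 had 11.08 and 6.47 in AE17 against 6.69 and 7.14 in MC38, high on the AE17 sh Ctrl array alone; it is named because keratins mark mesothelioma, after its values were seen.

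Transcription factors of body position and organ identity set the lines apart by single genes. Of 35 tested Hox genes, 6 were separated towards MC38 (17.1%, beside 16.4%) and 14 towards AE17 (40%, beside 26.9%). In the b cluster 7 of 9 lay towards AE17 and 0 towards MC38, with a median difference of -1.35 after quantile normalisation, beside -0.08 for all genes. Hoxb13, a factor of the hindgut and prostate, had 6.16 and 7.14 in AE17 against 4.62 and 4.85 in MC38. Hoxb9 had 7.07 and 8.37 in AE17 against 5.54 and 5.84 in MC38. Both MC38 arrays lay below both AE17 arrays in each. Hoxa6 had the opposite order, at 7.16 and 7.28 in AE17 against 8.30 and 8.44 in MC38. On a further list of 78 tested developmental factors, 16 were separated towards MC38 (20.5%, beside 16.4%) and 27 towards AE17 (34.6%, beside 26.9%). Among developmental factors other than Hox genes, Osr1 had 6.06 and 8.63 in AE17 against 10.45 and 10.51 in MC38. Foxl1, a factor of gut mesenchyme, had 5.97 and 5.71 in AE17 against 7.38 and 7.45 in MC38. Both were higher on both MC38 arrays. Foxa1, a pioneer factor of endoderm, had 6.23 and 5.88 in AE17 against 4.42 and 4.49 in MC38. The kidney factor Pax2 had 5.27 and 5.92 in AE17 against 4.22 and 4.26 in MC38. Both were higher on both AE17 arrays, with MC38 at or under the floor.

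In the Wnt pathway, which drives most colon carcinomas, 8 of 50 tested genes were separated towards MC38 (16%, beside 16.4%) and 18 towards AE17 (36%, beside 26.9%). The ligand Wnt7b had 7.77 and 5.84 in AE17 against 8.94 and 9.09 in MC38. The ligand Wnt5a had 5.79 and 6.82 in AE17 against 7.96 and 7.83 in MC38. The secreted modulator Dkk3 had 5.86 and 5.28 in AE17 against 8.07 and 7.64 in MC38. All 3 were higher on both MC38 arrays, though Wnt7b stood far apart within AE17. Over all 16 tested ligands 4 were separated towards MC38 and 8 towards AE17, the latter by gaps of up to -0.60, for Wnt11. Of 15 feedback targets, 1 was separated towards MC38, Ccnd1 at 10.70 and 11.14 in AE17 against 11.74 and 11.73 in MC38, and 4 towards AE17. Rnf43, a ubiquitin ligase that removes Wnt receptors, had 6.60 and 6.23 in AE17 against 5.09 and 5.22 in MC38. Myc had 11.41 and 10.90 in AE17 against 9.90 and 10.16 in MC38. The AE17 arrays were the higher ones in both genes.

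Hippo pathway genes, which pass cell shape and tension to the TEAD factors through the co-activators Yap1 and Wwtr1, were separated towards MC38 for 12 of 32 (37.5%, beside 16.4%) and towards AE17 for 7 (21.9%). Ankrd1 (Entrez gene 107765), a widely used reporter of that output, had 8.90 and 9.36 in AE17 against 11.65 and 12.12 in MC38, a difference of 2.75 ± 0.24 (SE; limma adjusted p = 0.257). Its promoter, printed above, held 2 TEAD boxes. The factor Tead4 had 7.90 and 7.99 in AE17 against 8.81 and 9.0 in MC38. Crim1 had 9.04 and 8.87 in AE17 against 9.78 and 10.27 in MC38. Both were higher on both MC38 arrays. The target Ccn2 lay the other way, at 6.08 and 8.94 in AE17 against 5.64 and 5.62 in MC38, high on the AE17 sh Spp1 array alone. Only 1 of the 2 tested probe sets of Ccn2 was separated. The targets as a group had 5 and 4 of 19 separated.

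Of 61 tested receptor tyrosine kinases and ligands, 15 were separated in each direction (24.6%, beside 16.4% towards MC38 and 26.9% towards AE17). Ligands had 10 and 6 of 33 and receptors 5 and 9 of 28. Vegfa, the main angiogenic factor, had 9.40 and 9.67 in AE17 against 11.35 and 11.37 in MC38, a difference of 1.83 ± 0.25. The receptor Mertk, which clears dying cells, had 6.98 and 8.78 in AE17 against 10.32 and 10.29 in MC38. The keratinocyte growth factor Fgf7 had 5.87 and 7.56 in AE17 against 9.99 and 8.81 in MC38. These 3 were higher on both MC38 arrays. Towards AE17 lay the collagen receptor Ddr1, at 9.07 and 9.42 in AE17 against 7.21 and 7.90 in MC38 with both tested probe sets on the same side. The epidermal growth factor receptor Egfr had 6.29 and 8.76 in AE17 against 5.47 and 4.93 in MC38, also towards AE17. The related collagen receptor Ddr2 lay towards MC38 at 10.56 and 10.56 in AE17 against 11.48 and 11.59 in MC38, the opposite side from Ddr1.

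Single cyclins used at the start of the cell cycle lay in both directions. Of 19 tested cyclins, kinases and inhibitors of that phase, 4 were separated towards MC38 (21.1%, beside 16.4%). Towards AE17 lay 6 (31.6%, beside 26.9%), so both shares were near those of all genes. Ccnd2 (Entrez gene 12444) had 10.57 and 11.22 in AE17 against 7.07 and 4.81 in MC38, a difference of -4.96 ± 0.81 (SE; limma adjusted p = 0.383), with the MC38 arrays differing by -2.26 (sh Spp1 minus sh Ctrl). Ccne1 had 9.22 and 9.23 in AE17 against 7.90 and 7.94 in MC38. Ccnd3 had 8.96 and 9.97 in AE17 against 8.28 and 8.44 in MC38. All 3 cyclins were higher on both AE17 arrays. Ccnd1, given above, and its kinase partner Cdk6, at 9.63 and 9.39 in AE17 against 10.47 and 10.22 in MC38, lay towards MC38. Mitosis and replication genes were separated towards MC38 for 7 of 32 (21.9%, beside 16.4%) and towards AE17 for 2 (6.25%, beside 26.9%), none by 1, with a list median of 0.20 beside -0.08 for all genes. Cdkn2a, which encodes the inhibitors p16 and p19Arf, had 6.57 and 6.59 in AE17 against 6.03 and 6.06 in MC38, and its difference turned sign in the values as deposited.

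Targets of p53 were separated towards AE17 for 10 of 28 (35.7%, beside 26.9%) and towards MC38 for 2 (7.14%, beside 16.4%). The epoxide hydrolase Ephx1 had 8.88 and 9.68 in AE17 against 5.79 and 5.65 in MC38, a difference of -3.56 ± 0.35 (SE; limma adjusted p = 0.264). Dglucy had 6.69 and 7.26 in AE17 against 4.98 and 4.91 in MC38. Trp53inp1, a p53-induced nuclear protein, had 8.36 and 8.07 in AE17 against 6.37 and 6.57 in MC38. These 3 were higher on both AE17 arrays. In MC38 the 2 separated members were Plk2 and Polk, by gaps of 0.28 and 0.22.

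Detoxification genes lay in both directions. Among NRF2 targets 6 of 16 were separated towards MC38 (37.5%, beside 16.4%) and 3 towards AE17 (18.8%, beside 26.9%), with small gaps but for 1 in each direction. The cystine transporter Slc7a11 had 7.09 and 8.32 in AE17 against 10.17 and 10.06 in MC38. The quinone reductase Nqo1 had 9.19 and 9.54 in AE17 against 10.97 and 10.24 in MC38. Gclm, a subunit of the enzyme that starts glutathione synthesis, had 9.73 and 9.83 in AE17 against 10.52 and 10.88 in MC38. These 3 were higher on both MC38 arrays. Among 18 tested glutathione transferases 6 were separated towards MC38 (33.3%) and 8 towards AE17 (44.4%), with 0 and 4 gaps of at least 1. Among 14 aldehyde dehydrogenases and keto reductases, 0 and 6 were separated. Gstm7 had 6.47 and 6.36 in AE17 against 4.89 and 4.88 in MC38. Gstm2 had 8.89 and 8.53 in AE17 against 6.95 and 7.19 in MC38. Gstt1 had 8.82 and 9.36 in AE17 against 7.39 and 6.91 in MC38. All 3 were higher on both AE17 arrays. Members of the Gstm family are close copies that share sequence, so a probe set can read more than its own gene. Aldh3b1, an aldehyde dehydrogenase, had 9.24 and 8.82 in AE17 against 6.75 and 6.86 in MC38. Cbr3, a carbonyl reductase, had 5.95 and 5.72 in AE17 against 4.35 and 4.0 in MC38. Both lay towards AE17.

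Hypoxia and glycolysis genes had the largest share towards AE17 among pathway lists of over 10 tested members. Of 26, 16 were separated towards AE17 (61.5%, beside 26.9%) and 3 towards MC38 (11.5%, beside 16.4%), with a median difference of -0.29 beside -0.08. In the values as deposited the list median was 0.01 beside 0.52 for all genes, so its sign turned while it lay further below the rest. The carbonic anhydrase Car12 had 7.85 and 7.10 in AE17 against 4.98 and 4.49 in MC38, a difference of -2.74 ± 0.25. Pfkp, the platelet form of phosphofructokinase, had 11.32 and 10.45 in AE17 against 9.22 and 9.26 in MC38. Pfkfb3, which makes its activator, had 6.82 and 7.39 in AE17 against 5.79 and 4.95 in MC38. In all 3 both MC38 arrays lay below both AE17 arrays. Bnip3, a mitophagy receptor, had 8.75 and 8.64 in AE17 against 7.71 and 7.74 in MC38. Of the 3 members towards MC38, Vegfa had a gap of 1.68, and Eno2 and Pdk1 had gaps of 0.13 and 0.02. Housekeeping genes also leaned to AE17, with 6 of 16 separated (37.5%) and none by 1, led by Gusb at 9.04 and 9.06 in AE17 against 8.29 and 8.17 in MC38.

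**Figure D4:**
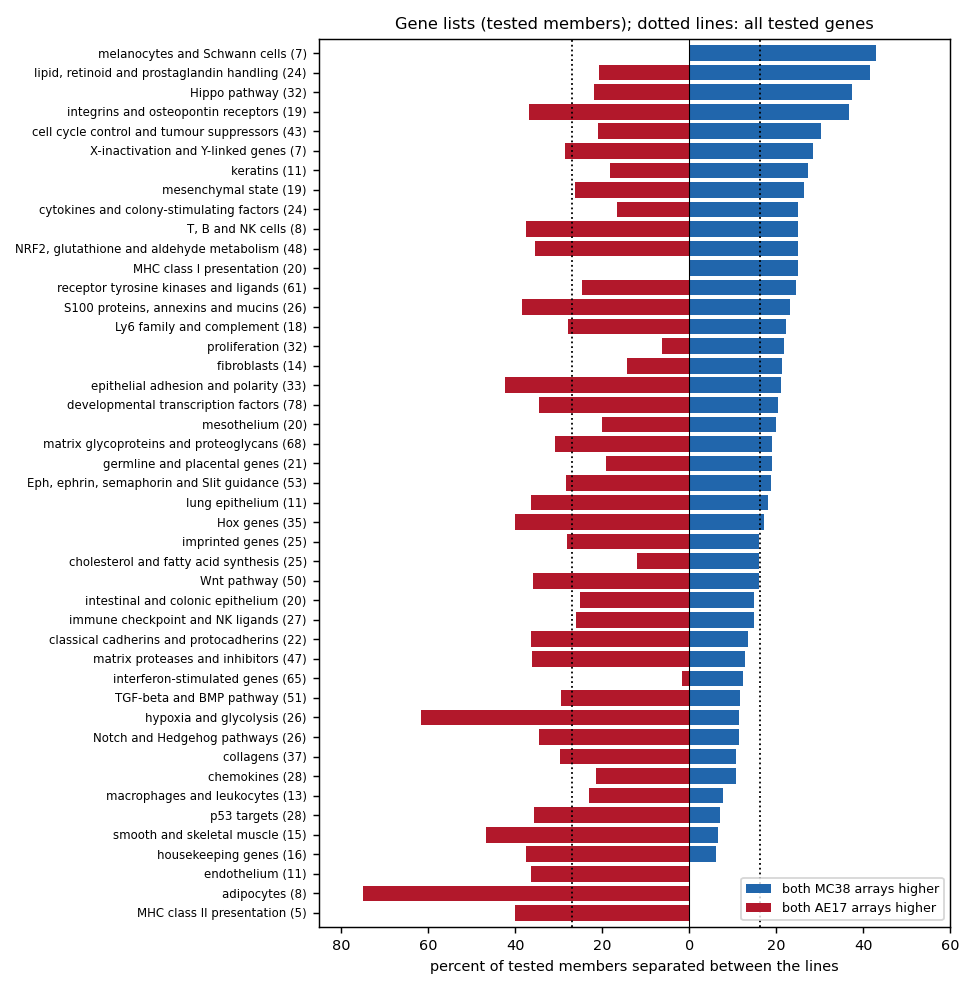
Percent of tested members of each gene list (number tested in parentheses) with both MC38 arrays above both AE17 arrays (blue, right) or both AE17 arrays above both MC38 arrays (red, left); dotted lines give the shares of all tested genes, 16.4% and 26.9%. Hypoxia and glycolysis reach 61.5% towards AE17, lipid, retinoid and prostaglandin handling 41.7% towards MC38, and interferon-stimulated genes 12.3% and 1.54%.

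Secreted immune signals were separated gene by gene. Of 24 tested cytokines, 6 lay towards MC38 (25%, beside 16.4%) and 4 towards AE17 (16.7%, beside 26.9%). The alarmin Il33 had 5.68 and 6.77 in AE17 against 9.13 and 8.49 in MC38. Leukaemia inhibitory factor, Lif, had 6.46 and 6.27 in AE17 against 8.19 and 7.45 in MC38. The MC38 arrays were the higher ones in both genes. Il34, a macrophage growth factor, had 6.49 and 6.79 in AE17 against 8.64 and 7.73 in MC38. Csf1, which shares its receptor, had 8.47 and 9.68 in AE17 against 10.55 and 11.10 in MC38. These also were higher on both MC38 arrays. Il18, an inflammasome product, lay towards AE17 at 6.82 and 7.22 in AE17 against 5.08 and 4.36 in MC38. Of 28 tested chemokines, 3 were separated towards MC38 (10.7%) and 6 towards AE17 (21.4%). Ccl9 had 6.27 and 5.83 in AE17 against 7.65 and 8.13 in MC38. Cxcl13, which draws B cells, had 7.41 and 7.07 in AE17 against 5.12 and 5.47 in MC38. Ccl8 had 5.75 and 6.58 in AE17 against 4.50 and 4.58 in MC38. Ccl9 lay towards MC38 and the other two towards AE17. Complement regulators included clusterin, Clu, at 9.32 and 9.0 in AE17 against 5.71 and 6.27 in MC38, a difference of -3.17 ± 0.34. Nectin1, an adhesion molecule, lay towards AE17 at 7.30 and 7.46 in AE17 against 5.92 and 5.82 in MC38.

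For interferon-stimulated genes the order of the lines turned with the hairpin. Of 65 tested members, 64 were higher in MC38 than in AE17 between the sh Ctrl arrays, 49 by at least 1, while 48 were lower in MC38 between the sh Spp1 arrays, 31 by at least 1. The list median was 1.97 in the first pair and -0.96 in the second. Both differences of at least 1, in opposite directions, were found in 30 of the 65, or 46.2%, against 117 of all 16859 genes, or 0.694%. The medians of all genes were -0.11 and -0.05. Separated towards MC38 were 8 (12.3%, beside 16.4%) and towards AE17 1 (1.54%, beside 26.9%). Each pair is 1 array against 1 array, so neither value has a replicate.

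Iigp1, an interferon-inducible GTPase, had 5.11 and 7.80 in AE17 against 9.21 and 4.89 in MC38. Irf7, the factor that amplifies type I interferon, had 7.89 and 9.07 in AE17 against 9.79 and 6.11 in MC38. In both genes AE17 was higher on its sh Spp1 array and MC38 on its sh Ctrl array, and the lines overlapped. These were chosen after their values were seen. By contrast, Cgas, the sensor of cytosolic DNA, had 4.54 and 5.53 in AE17 against 6.59 and 6.91 in MC38. Irf8 had 5.54 and 6.44 in AE17 against 7.05 and 7.54 in MC38. Both were higher on both MC38 arrays, though only 1 of the 2 tested probe sets of Irf8 was separated. For MHC class I, 5 of 20 tested genes were separated towards MC38 (25%, beside 16.4%) and 0 towards AE17, with list medians of 1.19 between the sh Ctrl arrays and -0.13 between the sh Spp1 arrays, beside -0.11 and -0.05 for all genes. H2-K1 had 9.81 and 11.16 in AE17 against 11.79 and 11.24 in MC38, separated by 0.09. The H2 genes are near-identical copies, and their probe sets may share signal.

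**Figure D5:**
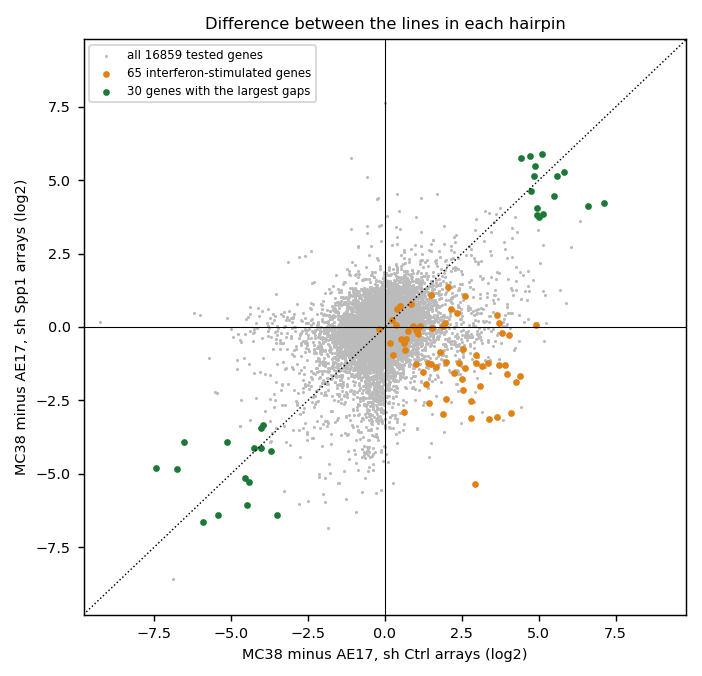
Difference MC38 minus AE17 in log2 units between the sh Ctrl arrays (horizontal) and between the sh Spp1 arrays (vertical) for the 16859 tested genes (grey), the 65 interferon-stimulated genes (orange) and the 30 named genes with the largest gaps (green); the dotted diagonal marks equal differences. The green points, chosen for their gaps under both hairpins, lie at upper right and lower left, some far from the diagonal, while most orange points lie at lower right, with a median of 1.97 on one axis and -0.96 on the other.

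Xist, the RNA that coats an inactive X chromosome, had 7.70 and 10.27 in AE17 against 4.89 and 4.24 in MC38, a difference of -4.42 ± 0.89 (SE; limma adjusted p = 0.436). Both AE17 arrays carried it, 2.57 apart, and MC38 lay near the floor. Of 7 tested X-inactivation and Y-linked genes, 2 were separated in each direction (28.6%, beside 16.4% towards MC38 and 26.9% towards AE17). Gaps of at least 1 numbered 0 towards MC38 and 1, that of Xist, towards AE17. Decorin, named above, belongs to the 25 tested imprinted genes. Of these, 4 were separated towards MC38 (16%, beside 16.4% of all genes) and 7 towards AE17 (28%, beside 26.9%), near the shares of all genes. Of 21 tested germline and placental genes, 4 were separated in each direction (19%, beside 16.4% towards MC38 and 26.9% towards AE17). Among them Plac9a had 8.15 and 8.37 in AE17 against 6.54 and 6.49 in MC38, with all 3 of its tested probe sets towards AE17.

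Some wide gaps belonged to neighbouring genes, in the gene order of RefSeq on GRCm38.p6. Runs of neighbours that were all separated the same way reached 8 genes in each direction. Towards MC38, Itgb8 and Macc1 lay side by side in a run of 3 with Sp4, and Sema5a was followed by Sdc2 in a run of 4. Towards AE17, Gstm7, Gstm3 and Gstm2 formed a run of 3, and Sema3b and Sema3f stood at the ends of a run of 5. Id2 ended a run of 5 that began with Klf11. With 43.4% of genes separated, runs are frequent, and 1448 of 2 or more genes were found.

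Promoter letters of the wide-gap genes were compared with those of all tested genes over 300 bases, from 250 before to 50 after the start, on both strands. A promoter was in the table for 13028 genes, 138 of the 193 and 212 of the 277. The TATA box TATAAA was in 13.8% of promoters of genes higher in MC38 and in 15.6% of those higher in AE17, against 8.7% of all. The TEAD box GGAATG was in 17.4% and 12.7%, against 12.8%, and the interferon element GAAANNGAA in 10.1% and 7.08%, against 7.07%. The AP-1 site TGANTCA was in 6.52% and 8.02%, against 5.9%, the GATA box AGATAA in 7.97% and 7.08%, against 7.46%, and the forkhead box TGTTTAC in 2.17% and 4.25%, against 2.53%. The Sp1 box GGGCGG was in 50% and 58%, against 56.9%, and the E-box CACCTG in 15.9% and 21.7%, against 19.5%. The median number of CpG pairs was 15 and 15.5, against 18. These shares are descriptions of letters, given without a test.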

How the data were processed

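Affymetrix arrays of biotin-labelled total RNA gave 1 linear intensity per probe set and array, deposited by the authors after RMA, with Genespring 12.5, per the submitters' processing notes and design text. The deposited intensities were not on 1 level across arrays, and genome build and annotation are not given in the sources used here. They were converted to log2 and quantile normalised over the 6 arrays. Of 41345 probe sets, 23521 named 1 gene symbol, 1814 several and 16010 none, and the first kind was kept if its mean over the 4 arrays reached the 30th percentile (log2 4.49). The brightest probe set stood for a gene. Entrez identifiers of 16743 of 16859 genes were found in the RefSeq table of GRCm38.p6. Limma 3.58.1 (R 4.3.3) was fitted with line and shRNA as terms and Benjamini-Hochberg adjustment. The shRNA term pairs arrays by hairpin, not by animal or day. Each array is 1 culture, and the number of arrays limits precision. With the shRNA term, SE and p-values rest on how far the line difference disagreed between the sh Ctrl and sh Spp1 arrays, moderated by limma across genes. A difference between hairpins that both lines share does not enter them. They therefore do not measure the spread between the arrays of a line. Scripts were tested on simulated data, and figures used Python 3.11.15 with matplotlib 3.10.9.

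Named genes were the 15 largest gaps in each direction with a gene name, up to 5 per list and direction, defining tissue markers and those beside a gap of 1. Members and lists were chosen with earlier results of these data known. Alternatives covered scaling, brightness filter, probe set choice, variance prior, shRNA term, LLC, thresholds and left-out arrays.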

Additional observations from a re-analysis of the deposited data

Results flagged for a closer look

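The median difference MC38 minus AE17 over the 65 tested interferon-stimulated genes was 1.97 log2 units between the sh Ctrl arrays and -0.96 between the sh Spp1 arrays, beside -0.11 and -0.05 for all genes. It was listed here because the lines were in opposite order under the 2 hairpins. The difference between these values was not tested, since each rests on 1 array per line.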

How the results depend on the processing

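Without the shRNA term, that is without the block that pairs arrays by hairpin, limma called 5 genes higher in MC38 and 7 higher in AE17 where the paired fit called 0 and 0. The 12 were Amigo2, Dcn, Dock8, Grem1 and Msln, and 2610318N02Rik, 2610524H06Rik, Acta2, Gfpt2, Il13ra1, Ndrg2 and Zdhhc15. In the values as deposited, separated genes numbered 9284 and 649 and gaps of at least 1 numbered 668 and 108. Differences of at least 1 between the sh Ctrl arrays alone numbered 980 and 1269, and between the sh Spp1 arrays alone 927 and 1424. Gaps of at least 2 numbered 51 and 68. Leaving out 1 array at a time, with line as the only term and the lone array assumed to vary like the other line, gave 0 to 605 calls higher in MC38 and 0 to 1075 higher in AE17. Both were 0 without either MC38 array, 605 and 1075 without AE17 replicate 1, and 592 and 848 without AE17 replicate 2. Separated genes ranged from 4178 to 6044 and from 6177 to 8157, and gaps of at least 1 from 320 to 688 and from 410 to 1111, since fewer arrays have to be ordered. The other settings run, LLC included, called 0 genes and kept these counts within 1.5 times. The 30 named genes were chosen for their gaps on the same arrays, so that their direction held in these settings shows nothing of its stability. Of their 510 values, 70 passed the threshold where the paired fit did not. Depth is not defined for arrays, and in 12 and 32 of the wide gaps both arrays of the lower line were under the brightness floor, so their size is uncertain.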

Other observations

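Of 26 tested S100 proteins, annexins and mucins, 6 were separated towards MC38 (23.1%, beside 16.4% of all genes) and 10 towards AE17 (38.5%, beside 26.9%). Cholesterol and fatty acid synthesis genes, 25 tested, had 4 and 3 separated, with list medians of 0.68 between the sh Ctrl arrays and -0.50 between the sh Spp1 arrays, beside -0.11 and -0.05 for all genes. Among Notch and Hedgehog genes 3 of 26 lay towards MC38 (11.5%) and 9 towards AE17 (34.6%), none by 1. Classical cadherins and protocadherins had 3 and 8 of 22 (13.6% and 36.4%). Of 761 genes with several tested probe sets, 40 had probe sets separated in opposite directions, and none of these had a gap of at least 1.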
